A study of Homo sapiens with 5 samples.

Results

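The genes described here are the human zinc finger genes named ZNF700 to ZNF899, leaving out ZNF750. They were chosen by symbol alone from the probe sets of an Affymetrix Gene 2.0 ST array that are named for a single gene. The values of several probe sets of a gene were averaged. The rule found 79 genes, measured by 82 probe sets, among 14812 named genes; RefSeq (build GRCh38.p14) lists 95 protein-coding genes with such symbols, and the other 16 are not analysed here. The set was proposed with the comparison of CDH26 and control clones already seen, so the values of that comparison are given as a description, without a test.

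RNA came from TE7, a human cell line that the labels name without a tissue and that is known as an esophageal carcinoma line. In 3 clones the cells had been transduced with pMIRNA1-puro-CDH26, a construct expressing the cadherin CDH26, and in 2 clones with the control construct, pMIRNA1-puro-control. Each clone grew from a single cell, so clones of the same construct may differ for reasons of their own, and every clone was kept at 1.8 mM calcium for 24 h before extraction. Each clone was read on 1 array, and the number of arrays limits the precision. All values below are log2 values counted from the control mean, on which the authors centred every probe set. They give differences and no level, so the expression of a gene in TE7 cannot be read from them, nor can the cell line be checked against its defining markers. In bulk RNA of this kind a change in every cell and a change in the share of cells expressing a gene cannot be told apart.

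ZNF symbols are given mostly to C2H2 zinc finger proteins, in which short finger modules hold a zinc ion and read bases of DNA. Many also carry a KRAB domain, which recruits the corepressor TRIM28 and, through it, histone methyltransferases and heterochromatin proteins that silence transposable elements and nearby genes. The genes have multiplied by tandem duplication, so relatives often lie side by side, above all on chromosome 19, and their transcripts share sequence. Whether a probe set also detects a relative was not tested.

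Of the measured genes, 38 are on chromosome 19, 14 on chromosome 7 and 8 on chromosome 16; the rest are spread over 11 further chromosomes. Promoter windows from RefSeq (build GRCh38.p14), running from 250 bases before to 50 bases after the gene start, were matched by gene identifier for 65 of the 79 genes. The windows had a median GC content of 62.0% and a median of 24 CpG dinucleotides, against 58.3% and 14 over 27305 promoters, 1 per gene. All 79 genes are protein-coding, whereas no filter on gene type was applied to the 27305. Whether other protein-coding genes or other ZNF genes differ from the 79 in these features was not tested. Motifs were searched on both strands. The GC box GGGCGG occurred in 70.8% of the windows against 44.6% of all promoters, the CCAAT box CCAAT in 60% against 35.7%, and the ETS motif CCGGAAG in 30.8% against 10.7%. The NRF1 motif was matched in 12.3% against 6.28%, YY1 (AAGATGGC) in 3.08% against 3.03%, ZNF143 (ACTACAA) in 3.08% against 2.95%, and the TATA box (TATAAA) in 7.69% against 12%. A match describes these letters only and is not a bound site.

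The promoters of 2 neighbouring genes on chromosome 16, ZNF747 and ZNF764, are shown because both genes lay lower in every CDH26 clone than in either control clone. Capitals mark the stretches of at least 10 bases that the aligned windows share. Both windows are on the minus strand, at chr16:30534809-30535108 for ZNF747 and chr16:30558325-30558624 for ZNF764.
ZNF747: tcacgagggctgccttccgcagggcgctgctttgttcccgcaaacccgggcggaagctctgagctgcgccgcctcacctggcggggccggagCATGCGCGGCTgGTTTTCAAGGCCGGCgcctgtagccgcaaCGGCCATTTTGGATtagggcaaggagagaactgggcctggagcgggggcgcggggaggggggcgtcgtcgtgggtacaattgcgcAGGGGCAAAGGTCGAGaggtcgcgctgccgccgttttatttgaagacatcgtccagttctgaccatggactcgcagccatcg
ZNF764: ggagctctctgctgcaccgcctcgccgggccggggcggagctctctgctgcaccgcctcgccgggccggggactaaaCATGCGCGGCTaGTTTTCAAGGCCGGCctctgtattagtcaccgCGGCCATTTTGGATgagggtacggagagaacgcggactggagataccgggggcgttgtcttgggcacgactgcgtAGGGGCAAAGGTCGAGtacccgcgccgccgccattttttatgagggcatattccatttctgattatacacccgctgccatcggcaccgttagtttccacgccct
The alignment placed 210 identical bases, 70% of the window, and 4 shared stretches, the longest of 16 bases. The next window pairs of that neighbourhood, ZNF747 with ZNF768 and ZNF764 with ZNF768, had 54.3% and 51.0% identical bases, and the lowest value, 47.3%, was for ZNF747 with ZNF785.

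The promoters of ZNF768 and ZNF785, from the same neighbourhood, and of ZNF836, which had the largest difference among the genes whose clones do not overlap, are shown for their motifs, which stand in capitals. The windows are on the minus strand at chr16:30526517-30526816, chr16:30585648-30585947 and chr19:52171572-52171871.
ZNF768: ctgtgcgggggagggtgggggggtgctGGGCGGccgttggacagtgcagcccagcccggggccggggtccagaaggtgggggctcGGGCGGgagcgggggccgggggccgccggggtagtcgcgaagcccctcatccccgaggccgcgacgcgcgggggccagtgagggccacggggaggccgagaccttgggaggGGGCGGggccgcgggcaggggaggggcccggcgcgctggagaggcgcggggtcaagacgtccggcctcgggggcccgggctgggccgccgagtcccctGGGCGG
ZNF785: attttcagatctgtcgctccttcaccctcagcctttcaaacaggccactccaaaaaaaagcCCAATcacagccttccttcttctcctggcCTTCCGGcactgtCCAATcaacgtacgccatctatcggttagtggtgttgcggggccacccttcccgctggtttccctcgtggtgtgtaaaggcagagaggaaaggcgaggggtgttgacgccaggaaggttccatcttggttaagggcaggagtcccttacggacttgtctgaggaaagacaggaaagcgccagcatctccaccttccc
ZNF836: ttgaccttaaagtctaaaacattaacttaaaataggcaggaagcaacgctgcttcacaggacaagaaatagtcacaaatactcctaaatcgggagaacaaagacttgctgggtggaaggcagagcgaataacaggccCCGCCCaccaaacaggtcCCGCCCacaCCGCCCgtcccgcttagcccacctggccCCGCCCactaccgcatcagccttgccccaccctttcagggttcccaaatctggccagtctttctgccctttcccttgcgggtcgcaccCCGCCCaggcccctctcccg
ZNF768 held 4 GC boxes and a GC content of 81.7%. ZNF836 held 5 GC boxes with a GC content of 57.0%, while ZNF785 held 0 GC boxes, 2 CCAAT boxes and 1 ETS motif.

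The construct's own transcript was read first. CDH26 stood at 2.87, 3.01 and 2.63 in CDH26 clones 1 to 3, against 0.01 and −0.01 in control clones 1 and 2. Its log2 difference was 2.84 ± 0.13 (SE), with a Benjamini-Hochberg adjusted p of 0.25 in limma, and 0 of 14812 genes (0%) passed the adjusted threshold of 0.05; at an unadjusted threshold of 0.05 limma called 3.51% of genes as higher and 4% as lower. Squamous epithelial markers lay higher in the CDH26 clones (3 of 5 measured, median difference 1.00, with clone medians of 0.86, 1.37 and 0.76 against 0.45 and −0.45), and all 3 measured ones passed 0.5. Of the fibroblast markers 2 of 6 were measured; 1 passed 0.5 and the other was under 0.1 in size, so their median of 0.81 rests on 1 gene. Columnar epithelial markers (6 of 6 measured) had a median of −0.04, with 1 gene at least 0.25 higher and 1 at least 0.25 lower. Leukocyte markers (3 of 6 measured) had a median of 0.01, with 1 gene more than 0.5 higher and the other two under 0.1 in size. The part of these differences in the zinc finger values was not tested.

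As a group the 79 zinc finger genes differed little between the constructs. The median log2 difference between CDH26 and control clones was −0.02, against 0.00 over all named genes and −0.02 over 357 other ZNF genes. The median of the 79 genes was −0.00, 0.00 and −0.02 in CDH26 clones 1, 2 and 3, and 0.00 in both control clones. Of the 79 genes, 36 had a higher and 43 a lower mean in the CDH26 clones, 45.6% and 54.4%, against 47.9% and 49.5% of all named genes. Among the other ZNF genes 152 were higher and 202 lower. The genes named ZNF700 to ZNF799 had 21 higher and 30 lower, and those named ZNF800 to ZNF899 had 15 higher and 13 lower. By chromosome, 23 of the 38 genes on chromosome 19 were higher, against 461 of all 934 measured genes there. Of the other 41 genes 28 were lower and 13 higher. The lower share was 68.3%, against 49.5% of all named genes, chromosome 19 included. No count was taken over all measured genes outside chromosome 19. Among chromosomes with more than 1 of the genes, all were lower on chromosomes 8 (4 genes), 15 (3 genes) and 9 (2 genes). No count over all measured genes was taken for those chromosomes, which were picked out after their values were seen.

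Differences were also small gene by gene. In 47 of the 79 genes the difference was under 0.1 log2 units in size, 59.5% against 60.3% of all named genes, and in 11 it reached 0.25 or more, 13.9% against 14.8%. Of these 11 genes 4 were higher and 7 lower in the CDH26 clones. Only ZNF827, at 0.75, passed 0.5 in size, 1 of 79 against 586 of 14812 named genes and 8 of 357 other ZNF genes. The lowest value was −0.40, for ZNF704.

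**Figure D1:**
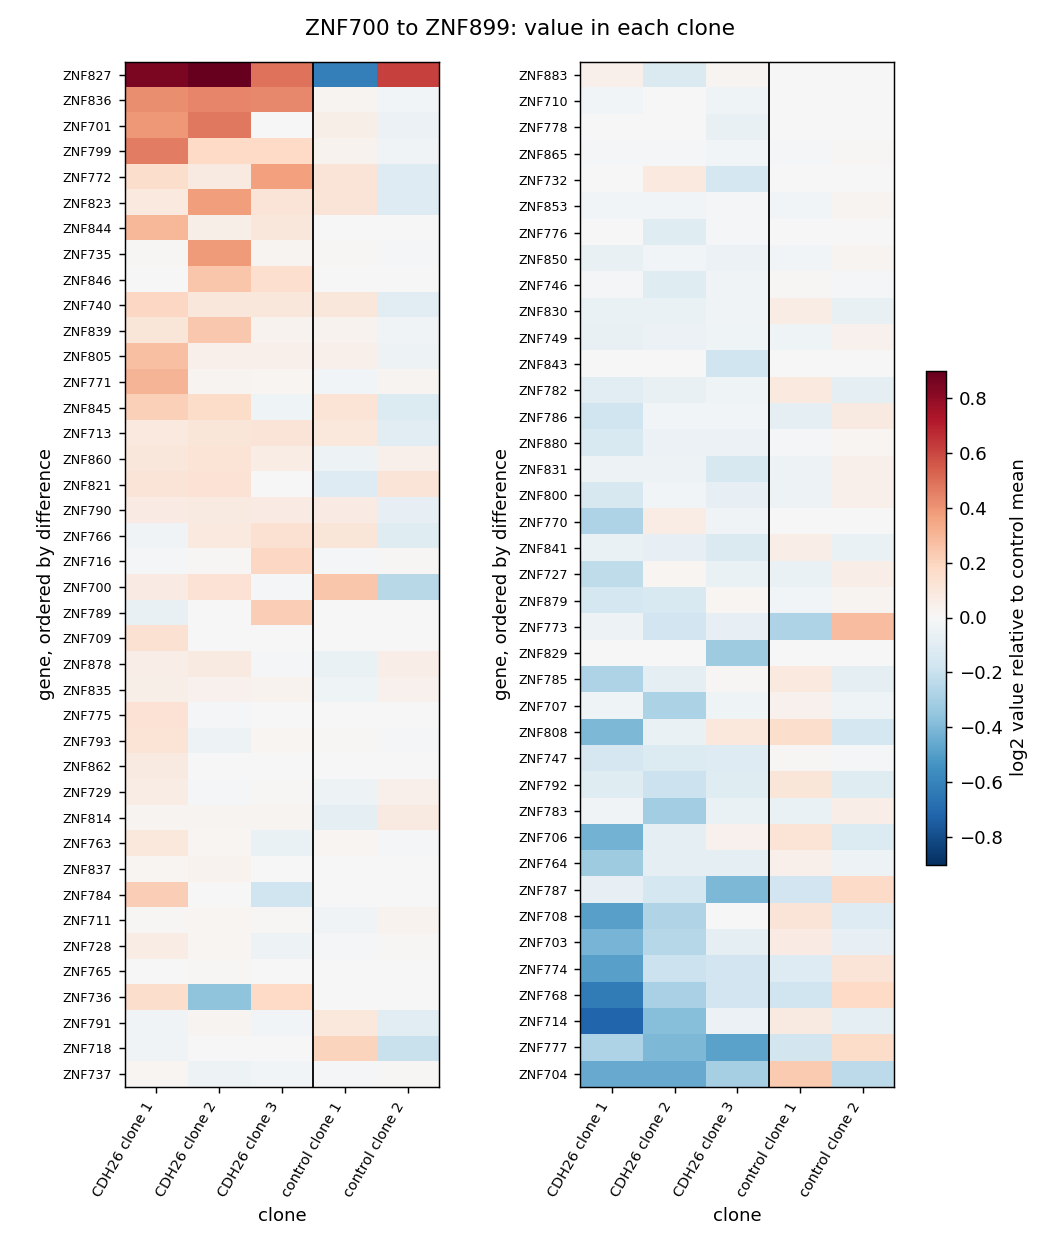
The colour of each cell gives the log2 value of a ZNF700 to ZNF899 gene in a clone, relative to the control mean, with the CDH26 clones left of the line and the control clones right of it. The 79 genes are ordered by the difference between the constructs, and most rows are pale, 47 of them with a difference under 0.1.

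**Figure D2:**
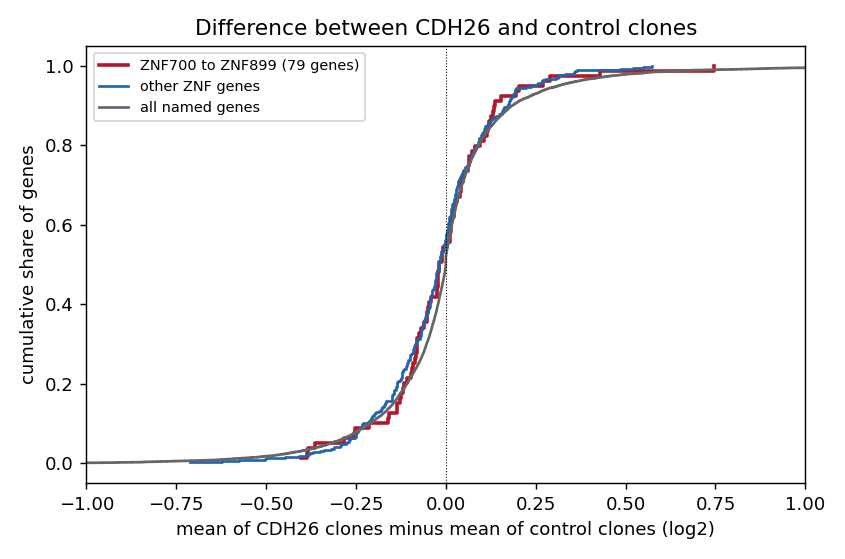
Cumulative share of genes (vertical axis) by the log2 difference between CDH26 and control clones (horizontal axis), for the 79 genes, the 357 other ZNF genes and all 14812 named genes. The axis stops at 1 on each side, which leaves out 96 of all named genes and 0 of the ZNF genes shown in red, and the curves lie close together around medians of −0.02, −0.02 and 0.00.

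In 12 of the 79 genes the clones of the constructs did not overlap. Every CDH26 clone exceeded both controls in 4 genes, 5.06% against 8.98% of all named genes, and below both in 8 genes, 10.1% against 9.93%. Without CDH26 clone 1, 2 or 3 the counts were 7, 8 and 11 above and 12, 12 and 13 below. Without control clone 1 they were 21 and 22, and without control clone 2 14 and 23. With fewer clones there is less to overlap with. The matching shares of all named genes were not computed with clones left out, so these counts have no background beside them.

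ZNF836 had the largest difference of these genes. It stood at 0.42, 0.44 and 0.43 in CDH26 clones 1 to 3, against 0.03 and −0.03 in control clones 1 and 2. The CDH26 clones lay within 0.02 of each other and well clear of the controls, with a log2 difference of 0.43 ± 0.03 (SE), a ratio of 1.35. ZNF799, next in size, stood at 0.46, 0.18 and 0.18 in the CDH26 clones, against 0.03 and −0.03 in the control clones. Clone 1 lies apart here, while clones 2 and 3 have the same value, and the difference of 0.27 ± 0.11 was 0.18 without CDH26 clone 1. ZNF844 was at 0.30, 0.05 and 0.10 in the CDH26 clones and at −0.00 and 0.00 in the control clones, a difference of 0.15 ± 0.09 that was 0.08 without CDH26 clone 1. ZNF860 was at 0.10, 0.12 and 0.06, against −0.04 and 0.04; its lowest CDH26 clone and its higher control clone nearly meet, and the difference of 0.10 ± 0.04 was 0.05 without control clone 1. ZNF836, ZNF799 and ZNF844 lie on chromosome 19 and ZNF860 on chromosome 3.

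In the other direction the list was led by ZNF704, on chromosome 8. It was at −0.45, −0.45 and −0.30 in CDH26 clones 1 to 3, against 0.23 and −0.23 in control clones 1 and 2. CDH26 clone 3 and control clone 2 are close, so that the difference of −0.40 ± 0.16 (SE) was −0.17 if control clone 1 was left out and −0.64 if control clone 2 was. ZNF703, a transcriptional cofactor known from a region amplified in luminal breast cancer, lies on the same chromosome. It was at −0.42, −0.25 and −0.09 in the CDH26 clones, against 0.08 and −0.08 in the control clones, a difference of −0.25 ± 0.12. CDH26 clone 3 sits just below control clone 2, and the difference was −0.17 without CDH26 clone 1. The other genes of the set on chromosome 8, ZNF706 and ZNF707, had differences of −0.16 and −0.12, with overlapping clones.

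ZNF777, on chromosome 7, was the only gene of the 8 in which CDH26 clone 3 was the lowest by more than 0.01. It stood at −0.28, −0.40 and −0.48 in CDH26 clones 1 to 3, against −0.17 and 0.17 in control clones 1 and 2, with a difference of −0.39 ± 0.13 (SE). The control clones differed from each other by nearly as much, 0.33, and the difference was −0.22 without control clone 2. ZNF774, on chromosome 15, was at −0.49, −0.19 and −0.17, against −0.11 and 0.11, a difference of −0.28 ± 0.14 that was −0.17 without control clone 2 and −0.18 without CDH26 clone 1. ZNF764 was at −0.32, −0.08 and −0.08, against 0.05 and −0.05, and ZNF747 at −0.15, −0.12 and −0.11, against 0.01 and −0.01. ZNF747 is thus small in size, at −0.13 ± 0.02, but nearly the same in the 3 CDH26 clones, whereas the −0.16 ± 0.10 of ZNF764 was −0.08 without CDH26 clone 1. ZNF880 and ZNF865 had differences of −0.08 ± 0.04 and −0.02 ± 0.02. ZNF880 was at −0.05 without CDH26 clone 1.

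**Figure D3:**
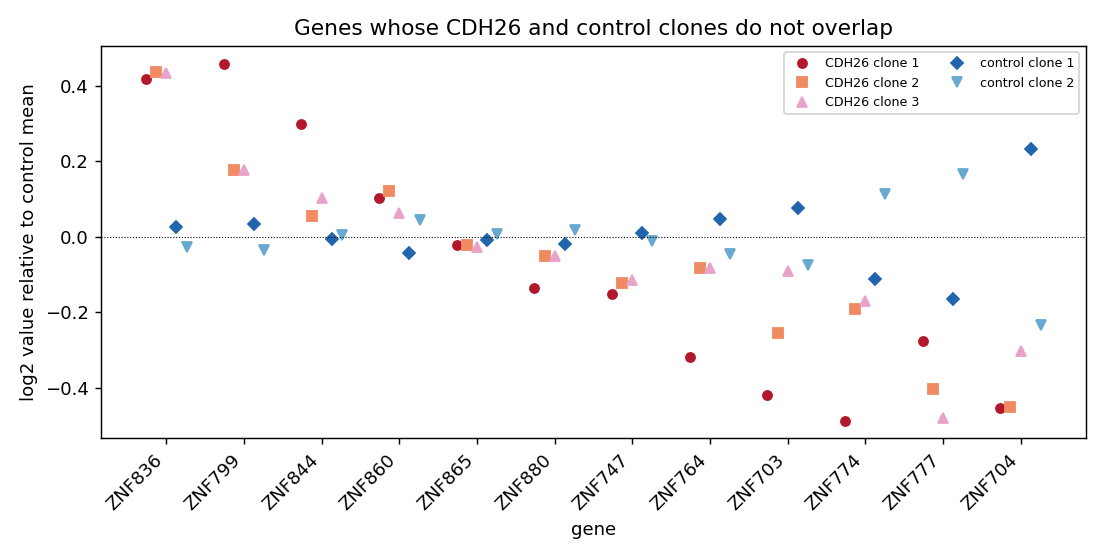
Log2 value relative to the control mean (vertical axis) of the 12 genes whose clones do not overlap, with CDH26 clones 1 to 3 left of control clones 1 and 2 for each gene. ZNF836 shows the 3 CDH26 points together at 0.42 to 0.44, while in ZNF799, ZNF844, ZNF764 and ZNF774 CDH26 clone 1 stands apart.

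The largest difference of the set did not separate the groups. ZNF827, which is known to bring the NuRD chromatin remodelling complex to telomeres, was at 0.85, 0.90 and 0.49 in CDH26 clones 1 to 3, against −0.62 and 0.62 in control clones 1 and 2. CDH26 clone 3 lay below control clone 2. The difference of 0.75 ± 0.43 (SE) was 0.13 if control clone 1 was left out and 1.36 if control clone 2 was, and the control clones differed from each other by 1.23.

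Control clones differed by 0.25 or more in 9 of the 79 genes, 11.4% against 21.2% of all named genes and 22.4% of the other ZNF genes. After ZNF827 the widest gaps between control clones were 0.55 for ZNF773, 0.50 for ZNF700, 0.47 for ZNF704 and 0.41 for ZNF718. In ZNF700 the CDH26 clones, at 0.07, 0.13 and −0.02, lay inside the control range of 0.25 to −0.25. The same held for ZNF773, at −0.05, −0.17 and −0.08 against −0.28 and 0.28, and for ZNF718, at −0.03, 0.00 and 0.00 against 0.20 and −0.20. Without control clone 1 the differences of ZNF700, ZNF773 and ZNF718 were 0.31, −0.37 and 0.19, and without control clone 2 they were −0.19, 0.18 and −0.21, so the sign of each depends on the control clone used. Over the whole set 62 of 79 genes kept 1 sign against either control clone taken alone. The share over all named genes was not computed. In 13 of the 62 the control clones were tied at 0, so the sign could not change. The difference between the constructs was larger than that between the control clones in 43 of 79 genes, 54.4% against 43.4% of all named genes. The 13 genes with tied control clones are among these 43 by construction.

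**Figure D4:**
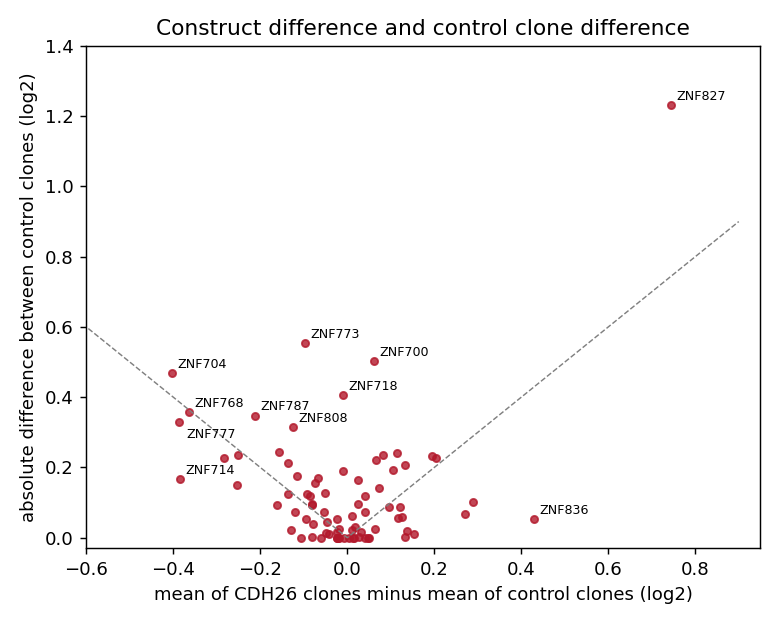
Each point is a ZNF700 to ZNF899 gene, with the log2 difference between CDH26 and control clones on the horizontal axis and the absolute log2 difference between control clones 1 and 2 on the vertical axis. The dashed line marks equal size; ZNF836 lies far under it (0.43 against 0.05) and ZNF827 above it (0.75 against 1.23).

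The CDH26 clones also differed among themselves. CDH26 clone 1 departed furthest from the control mean in 37 of the 79 genes, clone 2 in 24 and clone 3 in 15, and clone 3 was nearest to it in 31. The order was the same over all 14812 named genes, with 5912, 4186 and 3336 for clones 1, 2 and 3 as the furthest and clone 3 nearest in 5017. In the 7 genes at least 0.25 lower in the CDH26 clones, clone 1 was furthest in 6 and clone 3 in 1. The widest range over the CDH26 clones was 0.66, for ZNF714, at −0.71, −0.39 and −0.05, against 0.08 and −0.08 in the control clones. ZNF708 had the same order, at −0.49, −0.27 and 0.00, against 0.12 and −0.12. In both, clone 3 was inside the control range, while clones 1 and 2 were below it. The difference of ZNF714 was −0.38 and that of ZNF708 −0.25, and without CDH26 clone 1 they were −0.22 and −0.13; ZNF708 was also at −0.13 without control clone 1 and at −0.38 without CDH26 clone 3. ZNF736 spread the other way, with clone 2 at −0.36 and clones 1 and 3 at 0.16 and 0.18, and both control clones at 0.00; its difference of −0.01 was 0.17 without clone 2. ZNF808, a KRAB protein required for human pancreas development, was at −0.41, −0.06 and 0.09, against 0.16 and −0.16, with only clone 1 outside the controls. Its difference of −0.13 changed sign, to 0.02 without CDH26 clone 1 and to 0.03 without control clone 1, and was −0.23 without CDH26 clone 3 and −0.28 without control clone 2.

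Some genes hardly moved. Among genes with 5 distinct values, the smallest differences were 0.01 ± 0.04 (SE) for ZNF728, −0.01 ± 0.07 for ZNF791 and −0.02 ± 0.03 for ZNF737. The sign of ZNF728 and of ZNF791 changed when CDH26 clone 1 or control clone 1 was left out, while ZNF737 stayed between −0.04 and −0.01 whichever clone was left out. Exact ties between arrays were also counted: 35 of 79 genes were free of ties, 44.3% against 46.3% of all named genes, with values within 1e-05 counted as tied. In 13 genes, 16.5% against 14.5%, the control clones were tied at 0, and 0 of the 79 genes had a single value throughout, against 377 of all named genes. The origin of the ties was not tested. The CDH26 clones were tied with each other in 7 genes for clones 1 and 2, 5 for clones 1 and 3, and 10 for clones 2 and 3, which is 8.86%, 6.33% and 12.7%, against 15.2%, 14.7% and 17.4% of all named genes.

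For the 3 genes with 2 probe sets the mean combines values that differ to varying degrees. The probe sets of ZNF785 had differences of 0.00 and −0.24, those of ZNF770 −0.02 and −0.14, and those of ZNF710 −0.03 and −0.02.

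Neighbouring genes were then set side by side. A run was taken as at least 4 of the 79 genes with at most 6 other protein-coding genes between consecutive ones, limits chosen after the values were seen. RefSeq gave 4 runs holding 25 of the genes. On chromosome 16, 4 of the 5 genes from ZNF771 to ZNF785 were lower in the CDH26 clones, with a median difference of −0.13. ZNF768, a zinc finger factor linked to RAS signalling, was at −0.63, −0.29 and −0.17 in CDH26 clones 1 to 3, against −0.18 and 0.18 in control clones 1 and 2, a difference of −0.36 ± 0.20 (SE). CDH26 clone 3 overlaps control clone 1 there. ZNF785, as the mean of its 2 probe sets, was at −0.28, −0.08 and 0.01, against 0.09 and −0.09. ZNF771 opposed the rest, at 0.30, 0.03 and 0.02, against −0.03 and 0.03, with only CDH26 clone 1 apart.

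That pattern was not limited to zinc finger genes. The 3 other measured genes of the chromosome 16 run were all lower in the CDH26 clones, with medians of −0.56, −0.29 and −0.08 in CDH26 clones 1, 2 and 3 and 0.00 in the control clones. They are DCTPP1, a nucleotide pyrophosphatase, at −0.32, SEPHS2, a selenophosphate synthetase, at −0.35, and ZNF688 at −0.04. Of the 20 measured genes on each side of the run, 29 of 40 were lower, with medians of −0.23, −0.01 and 0.00 in CDH26 clones 1, 2 and 3. Over the 522 measured genes of chromosome 16 the median was −0.002 in each CDH26 clone, and 286 were lower. Within this stretch CDH26 clone 1 had the lowest medians.

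On chromosome 19, 7 of the 8 genes from ZNF823 to ZNF791 had a higher CDH26 mean, and their median difference was 0.05. Their medians were 0.09, 0.07 and −0.01 in CDH26 clones 1 to 3, against 0.02 and −0.02 in the control clones. The median of CDH26 clone 3 was thus inside the control range. Of the 13 other measured genes in that run, all of them ZNF genes, 9 were higher, with a median of 0.03, and over 934 measured genes of the chromosome 461 were higher and 454 lower. ZNF799 and ZNF844 belong to this run, as does ZNF823, at 0.09, 0.38 and 0.12 in CDH26 clones 1 to 3, against 0.12 and −0.12 in control clones 1 and 2. The second run on that chromosome, from ZNF841 to ZNF701, had 3 genes higher and 3 lower. ZNF836, described above, stood there between ZNF841, at −0.09, and ZNF766, at 0.07, and ZNF701 was at 0.39, 0.47 and 0.00, against 0.05 and −0.05, so that CDH26 clone 3 was inside the control range. In the run on chromosome 7, from ZNF786 to ZNF775, 4 of 6 genes were lower, with a median of −0.06. Their medians were −0.020, −0.066 and −0.028 in CDH26 clones 1 to 3, against −0.031 and 0.031 in the control clones. CDH26 clones 1 and 3 were thus inside the control range. Of the 10 other measured genes in the run 7 were lower, as were 27 of the 40 around it and 293 of 536 on the chromosome. ZNF746, which encodes the Parkin substrate PARIS, belongs to the chromosome 7 run and differed by −0.05 ± 0.04 (SE).

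**Figure D5:**
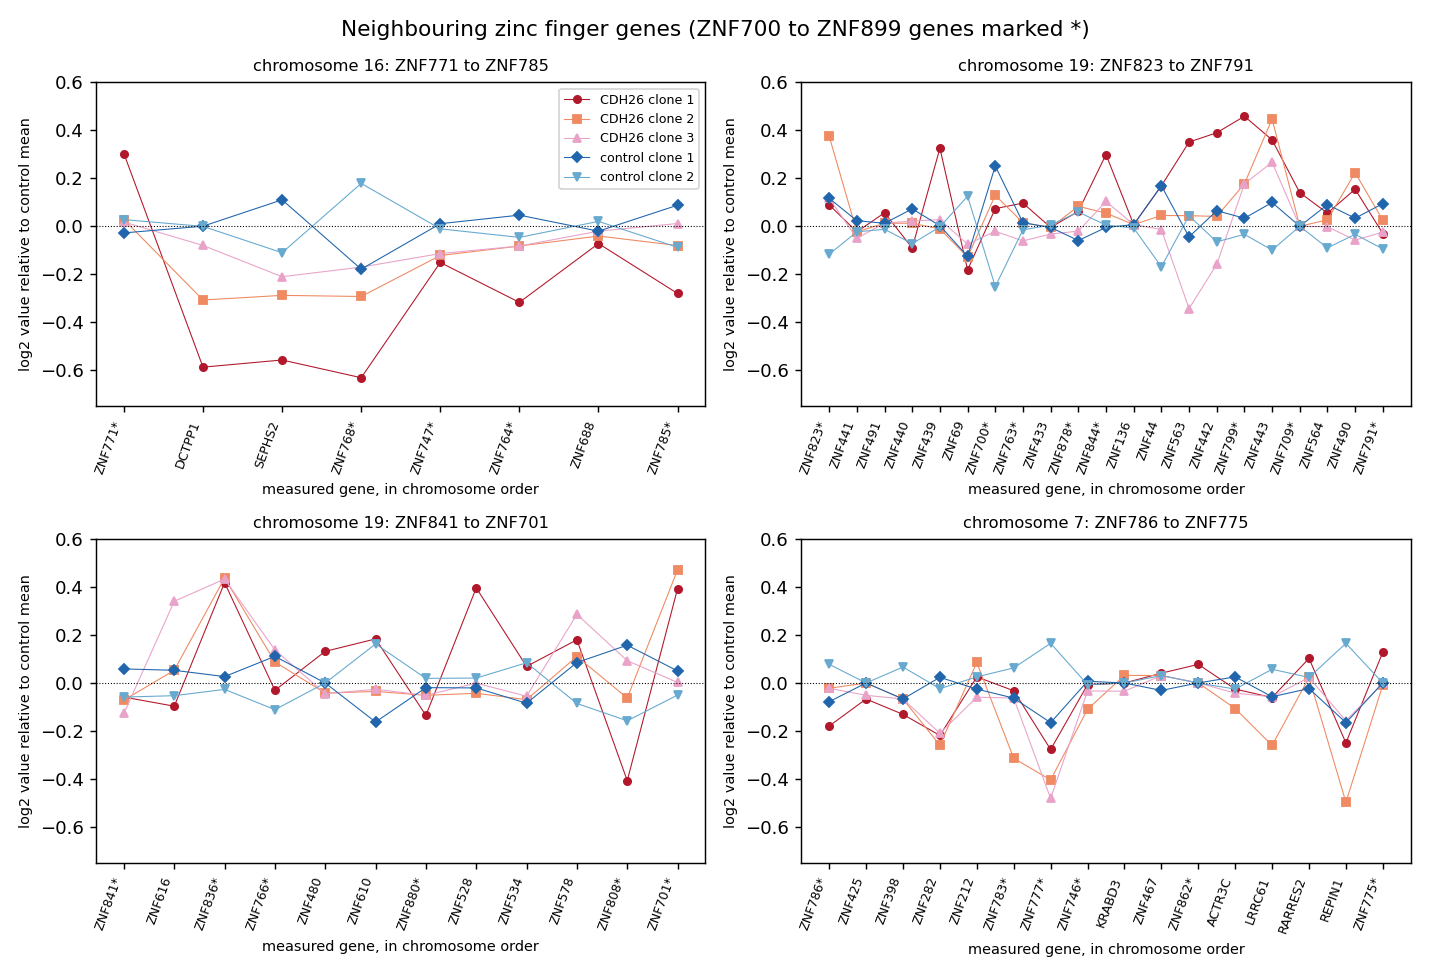
Log2 value relative to the control mean (vertical axis) of every measured gene in the 4 runs, in chromosome order and without scale along the chromosome, with 1 line per clone and the ZNF700 to ZNF899 genes starred. On chromosome 16 CDH26 clone 1 lies lowest from DCTPP1 to ZNF785, reaching −0.63 at ZNF768.

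The proteins that KRAB zinc finger factors work with were read as a list of 36 genes, of which 30 had a probe set named for that gene alone. SETDB1, the methyltransferase recruited by TRIM28, had none. In the CDH26 clones 23 of the 30 had a lower and 7 a higher mean, with a median difference of −0.055. The lower share was 76.7%, against 49.5% of all named genes. The median of the list was −0.10, −0.05 and 0.01 in CDH26 clones 1 to 3, against 0.07 and −0.07 in control clones 1 and 2. CDH26 clones 2 and 3 thus had higher medians than control clone 2. The direction counts were not taken against each control clone alone. Limma called 0 of them at the adjusted threshold and, at an unadjusted threshold of 0.05, 2 as lower and 1 as higher, 6.67% and 3.33% against 4% and 3.51% of all named genes. TRIM28 itself was at −0.19, −0.23 and −0.22 in CDH26 clones 1 to 3, against 0.05 and −0.05 in control clones 1 and 2. All CDH26 clones lay below both controls and close together, with a difference of −0.21 ± 0.04 (SE) and a limma adjusted p of 0.626.

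Of the heterochromatin proteins, CBX3 was at −0.27, −0.08 and −0.08 in the CDH26 clones, against 0.08 and −0.08 in the control clones, a difference of −0.15 ± 0.09 (SE) with CDH26 clones 2 and 3 barely below control clone 2. CBX1 differed by −0.06 ± 0.06, and CBX5 by −0.14 ± 0.32, with control clones at 0.47 and −0.47. Among the other genes without overlap, the histone H3 lysine 9 methyltransferase SUV39H2 differed by −0.38 ± 0.17. POGZ, a zinc finger protein that binds heterochromatin protein 1, and RCOR1, the CoREST corepressor, differed by 0.37 ± 0.16 and 0.36 ± 0.11. Each had a limma adjusted p of 0.626 or more, and the largest of these, for CBX5, was 0.874. In all, 6 genes of the list lay wholly below the control clones, 20% against 9.93% of all named genes, and 2 wholly above, 6.67% against 8.98%.

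The other ZNF genes without overlap reached larger values, but they number 357 against 79 and include ZNF750, left out of the 79 by the rule. A difference of at least 0.25 in size was found in 11.8% of them, against 13.9% of the 79 genes and 14.8% of all named genes. ZNF512 and ZNF622 were lower in the CDH26 clones by −0.62 ± 0.25 and −0.50 ± 0.20 (SE), and ZNF184 and ZNF750 higher by 0.57 ± 0.27 and 0.55 ± 0.15, with a limma adjusted p of 0.626 for each. The clones lay wholly above the controls in 26 of those 357 genes, 7.28% against 8.98% of all named genes, and wholly below in 39, 10.9% against 9.93%.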

How the data were processed

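The deposited table holds log2 values of 44607 probe sets on 5 arrays, made by the authors with Affymetrix Expression Console, per the submitters' processing notes; no version, summarisation or build is stated in the sources used here. The base of the logarithm is not recorded and is taken as 2. Control values are equal and opposite in each row (largest absolute sum 1e-06), which shows centring by the authors on the control mean. The platform annotation named 15835 probe sets, all with current RefSeq symbols, giving 14812 genes; probe sets of a gene were averaged.

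Groups were compared over all genes with limma 3.58.1 in R 4.3.3 (lmFit, eBayes, two-sided, Benjamini-Hochberg), whose SE is quoted; the step was tested on simulated data. The clones are separate, 1 array each. With 3 and 2 clones the smallest exact permutation p is 0.1, so none was run. Genes and lists were chosen with earlier results of these data known. Named genes were CDH26, up to 8 without overlap in each direction, 5 with the widest control gap, 4 with the widest CDH26 range, 3 with the smallest difference, TRIM28, SETDB1, CBX1, CBX3, CBX5, the 4 corepressor genes with the largest differences without overlap (1 of them TRIM28) and 2 other ZNF genes per direction; others are named to describe runs, probe sets or chromosomes and were chosen after their values were seen. Endothelial markers (2 of 4 measured) had a median of −0.00. Grouping by protein features was planned and not run, nor was a filter on dim genes, since centred values hold no brightness. Alternatives were array medians, variance settings, a replicate block, each clone left out, natural logarithms, a threshold of 0.1, genes free of ties and genes with 1 probe set. Promoter windows were aligned globally (match 1, mismatch −1, gap −3 and −1). Figures were drawn with matplotlib 3.10.9.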

Additional observations from a re-analysis of the deposited data

How the results depend on the processing

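Of 62 recomputed summary values 44 stayed within the limits set for them and 18 moved. Some of the 44 could not have moved. The array medians over all named genes were 0.00, so subtracting them changed no value. Natural logarithms only rescale the values, which leaves every count as it was. With each clone left out in turn, the genes with CDH26 clones wholly above numbered 7 to 21 and wholly below 12 to 23, the median difference ran from −0.02 to −0.00 (−0.022 to −0.0026), and the genes past the adjusted threshold numbered 0 to 186. The 186, of 14812 genes, came without control clone 1. The replicate block, which uses clones 1 and 2 of each group, gave 11 above, 13 below and a median of −0.0026. These are the same values as without CDH26 clone 3. The counts of genes without overlap were not taken over all named genes with clones left out. Clones of equal number are not known to share more than the number. Over all genes the correlation of their deviations was −0.2 for number 1 and −0.21 for number 2, and over the 79 genes −0.22 and 0.1. Control values are equal and opposite, so both correlations rest on the same control values. Whether clones of equal number were handled together was not tested. Restricted to genes free of ties, 35 of the 79, 16 were higher and 19 lower, 3 lay wholly above (8.57% against 16.4% of all genes free of ties) and 5 wholly below (14.3% against 18.6%), and 1 of 6857 genes passed the adjusted threshold. Of 224 values of single genes 24 moved by at least 1 SD between clones (pooled over both groups). All of these came without a control clone or with natural logarithms. Leaving out 1 of the 3 CDH26 clones always shifts a difference by less than this SD. By this limit no gene could have moved there, nor in the replicate block, which has the values found without CDH26 clone 3. The moves with natural logarithms come from the change of unit, since the SD stayed in log2 units. Leaving out a CDH26 clone also shifted several genes by over 1.5 times or changed their sign. Only some of these shifts are given beside the genes concerned. Those of ZNF700, ZNF718 and ZNF773 are not, nor are some of ZNF728, ZNF736 and ZNF791.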
